A study of Mus musculus with 3 samples.

Results

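IgD-negative B cells were studied in the infiltrate of islets from wild-type female NOD mice, a strain in which the immune system attacks the insulin-producing beta cells. Live CD45+ cells had been sorted from islets of mice aged 15 to 16 weeks, with islets of 2 to 3 mice pooled in each library, and 3 libraries (replicates 1, 2 and 3) of 1 condition were sequenced by droplet single-cell RNA sequencing. The libraries came from 2 independent experiments, and which library belongs to which is not given in the sources used here. A B cell was a cell with at least 2000 unique molecular identifiers (UMIs, single counted transcripts), under 10% of them mitochondrial, at least 2 UMIs of Cd79a (a signalling chain of the B-cell receptor), at least 1 UMI of Ms4a1 (CD20), at most 2 UMIs of Jchain (the joining chain of secreted antibody), and none of Cd3d, Cd3e, Cd3g, C1qa and C1qb. This gate held 3615 cells, and the cells were chosen by these counts and that of Ighd, the constant gene of IgD, which are a description and not a result. Of the 3615 cells, 817 had no Ighd UMI and are called IgD-negative, 752 had 1 UMI, and 2046 had 2 or more and are called IgD-positive. The 3 libraries held 26947 cells in all, of which 25716 passed the limits on depth and mitochondrial UMIs.

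A mature naive B cell makes IgM and IgD from 1 long transcript of the heavy-chain locus by alternative splicing. When the cell is activated, often with help from T cells in a germinal centre, it can undergo class switch recombination, which deletes the genes for IgM and IgD from the chromosome and joins the variable region to a constant gene for IgG, IgE or IgA. Activation can also lower IgD in cells that keep IgM, and B-1 cells and marginal zone B cells, which respond early and without germinal centres, carry little of it. On mm10 (GRCm38) the constant genes lie on chromosome 12, minus strand, and in the direction of transcription Ighm (chr12:113418558-113422730) comes before Ighd (chr12:113406604-113416324), followed by Ighg3 (chr12:113356224-113361232), Ighg1 (chr12:113325240-113330523), Ighg2b (chr12:113302965-113307933), Ighg2c (chr12:113285325-113288932) and Igha (chr12:113254830-113260236).

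IgD-negative cells were 26.0%, 19.2% and 22.9% of the gated B cells of replicates 1, 2 and 3 (335 of 1288, 266 of 1383 and 216 of 944 cells), 22.7% ± 3.39 (SD, n = 3). The median gated cell held 2 Ighd UMIs in each library, so the group of 0 UMIs adjoins the bulk of the cells and can also hold IgD-expressing cells in which no Ighd transcript was sampled. Among cells of 2000 to 4000 UMIs the share was 27.0%, 35.1% and 32.2%, and among cells over 10000 UMIs it was 33.3%, 12.6% and 18.6%. The share was thus lower in the deepest cells of replicates 2 and 3 and not in those of replicate 1. When every cell was thinned to 2000 UMIs and gated again, 48.6% of the gated cells had no Ighd UMI. The median depth of IgD-negative cells was 4055, 6207.5 and 5694 UMIs in replicates 1, 2 and 3, against 4206, 7003 and 6166 UMIs in IgD-positive cells. Just inside the gate, 8, 5 and 6 IgD-negative cells had exactly 2 Cd79a UMIs; just outside it, the cells without an Ighd UMI that failed 1 other criterion only were 9 with 1 Cd79a UMI, 146 with no Ms4a1 UMI, 91 with more than 2 Jchain UMIs, 475 with a Cd3 UMI and 1 with a C1q UMI. The 3 libraries shared 59 cell barcodes in pairs, and no shared barcode was an IgD-negative cell in both libraries. Replicate 1 stood apart from the other libraries. Mitochondrial UMIs were 2.17% of its IgD-negative sum, against 4.59% and 4.24% in replicates 2 and 3, and its cells were shallower. Deviations of IgD-negative and IgD-positive sums from their group means were correlated over the 8731 genes tested below. The r was -0.37 to -0.46 between replicate 1 and the others, and 0.20 and 0.23 between replicates 2 and 3. The deviations of 3 libraries from their mean sum to 0, so a positive r within a library pulls down those between libraries.

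**Figure D1:**
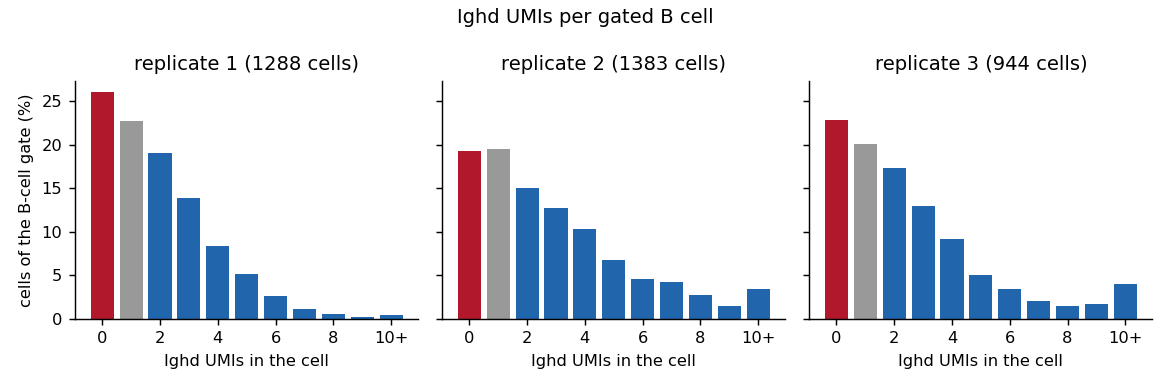
Share of the gated B cells of each library (y axis, %) by the number of Ighd UMIs in the cell (x axis; 10+ stands for 10 or more). Red bars are the IgD-negative cells (26.0%, 19.2% and 22.9%), grey bars cells with 1 UMI and blue bars IgD-positive cells. The bars run on without a gap from 0 to 2 UMIs.

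The cells were B cells by markers outside the gate. The 8 B-cell markers not used to choose cells (among them Pax5 and Ebf1) summed to 2839, 2519 and 2340.3 CPM (UMIs scaled to the same total of all UMIs) in the IgD-negative sums of replicates 1, 2 and 3, lower in each library than the 3142, 3036 and 2824 CPM of IgD-positive cells, against 125.7, 119.9 and 118.5 CPM in T cells of the same libraries (at least 2 UMIs over Cd3d, Cd3e and Cd3g and none of Cd79a and Ms4a1). T cells serve below as a measure of the free RNA that droplets pick up. The 10 T-cell markers summed to 64.4, 76.4 and 110.2 CPM in IgD-negative cells, 70.9, 72.0 and 70.9 CPM in IgD-positive cells and 4586, 3954 and 4063 CPM in T cells.

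The dominant isotype of a cell was the heavy-chain constant gene with most UMIs, if it had at least 3 and at least 2 times the next. Of the 817 IgD-negative cells, 357 were dominated by Ighm, 103 by a switched gene, and 357 had no call. The 103 switched cells were 45 with Ighg2b, 33 with Igha, 19 with Ighg1 and 6 with Ighg2c. None was dominated by Ighg3 or Ighe, which allows a share of such calls of up to 0.367%. The share with a switched call was 9.25% in replicate 1 (95% exact binomial interval 6.37 to 12.9), 16.5% in replicate 2 (12.3 to 21.6) and 13.0% in replicate 3 (8.79 to 18.2). In IgD-positive cells it was 0.303%, 0.118% and 0.371% (5 of 2046 cells), in cells with 1 Ighd UMI 0.683%, 0.741% and 0.529%, and in T cells 10 of 16873 cells had such a call. IgD-negative cells thus held 103 of the 113 switched cells of the gate (91.2%), and the share was higher than in IgD-positive cells in 3 of 3 libraries, by 12.7 ± 3.74 percentage points (mean and SD). The difference was 6.43 points without cells that carry other cell types' markers, 6.90 under the study's limits on cells and 7.05 in cells thinned to 2000 UMIs. The 6.43 points became 11.1 when Apoe was not counted among these markers, an alternative chosen after seeing the data. An exact sign-flip permutation test gave p = 0.25 (two-sided), the smallest that 3 libraries allow. A call at 1 UMI without a lead gave 9.26% of T cells a switched isotype, so that looser rule serves only as an alternative. Intervals here cover counting error only.

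**Figure D2:**
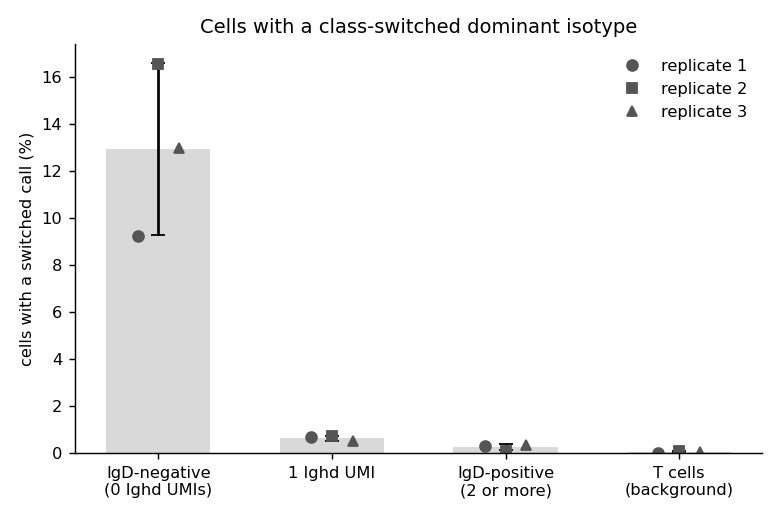
Share of cells whose dominant isotype was IgG or IgA (y axis, %) in the 3 libraries, by Ighd UMIs and in T cells as background. Bars are means over 3 libraries, error bars the SD and symbols the libraries. IgD-negative cells sit at 9.25% to 16.5% and every other group below 1%.

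In the sums over cells, the 6 switched constant genes together took 211.6, 295.7 and 334.7 CPM of the IgD-negative UMIs, against 36.8, 30.0 and 45.7 CPM in IgD-positive cells and 21.1, 23.7 and 42.5 CPM in T cells. T cells do not make antibody. The IgD-positive level was above theirs in each library, and the part of free RNA in it was not tested. Igha was at 42.0, 96.7 and 110.2 CPM in IgD-negative against 5.09, 10.0 and 8.38 CPM in IgD-positive cells (log2 fold change 3.34 ± 0.16 (SE), adjusted p = 7.21e-08). Ighg1 was at 36.4, 33.0 and 81.0 CPM against 4.49, 3.00 and 9.90 CPM (log2 fold change 3.12 ± 0.18 (SE), adjusted p = 4.10e-07). Ighg2b was at 107, 133 and 102 CPM against 18.6, 9.45 and 21.1 CPM (log2 fold change 2.88 ± 0.21 (SE), adjusted p = 2.81e-06). None of the 3 genes overlapped between the groups, as was so for 11.4% of all genes tested, in either direction. Ighg2c and Ighg3 also passed (log2 fold changes of 2.08 and 2.20). The test is described below. In IgD-negative cells Ighg2b took 50.5%, 45.0% and 30.6% of the switched UMIs and Igha 19.8%, 32.7% and 32.9%. Reads from the IgG genes can be split between near-identical copies, so the division among IgG subclasses is uncertain. Ighm, which was set by the isotype of the cells and not tested, stood at 1013, 519 and 404 CPM in IgD-negative and 917, 935 and 830.0 CPM in IgD-positive cells.

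IgD-negative cells were then compared with IgD-positive cells of the same libraries across all genes. UMIs were summed per library and group and tested with the library as a block (edgeR, adjusted p under 0.05). Genes of the gate and Ighm were left out. Of 8731 genes tested, 198 were higher (2.27%) and 82 lower (0.939%) in IgD-negative cells, 3.21% in all. The genes that rose included switched antibody genes, apolipoprotein E and genes of B-1, memory and activated B cells, and those that fell included genes of resting follicular B cells and of B-cell receptor signalling. The count was 452 without replicate 1 (250 higher, 202 lower), 215 of them among the 280, and 236 and 260 without replicates 2 and 3. With IgD-positive cells matched on depth it was 235, 199 of them among the 280. It was 583 without a filter on low counts (346 higher, 237 lower) and 361 with the gate applied to cells thinned to 2000 UMIs (210 higher, 151 lower), 143 of these among the 280. It was 98 with DESeq2 (75 higher, 23 lower), and 26, all higher, without the library block. Under the study's limits on cells, which remove those of 6000 UMIs or more, it was 50, with 241, 75 and 96 IgD-negative cells left. Counts of transcripts per group do not tell apart a gene that is higher in every cell from more cells that express it.

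**Figure D3:**
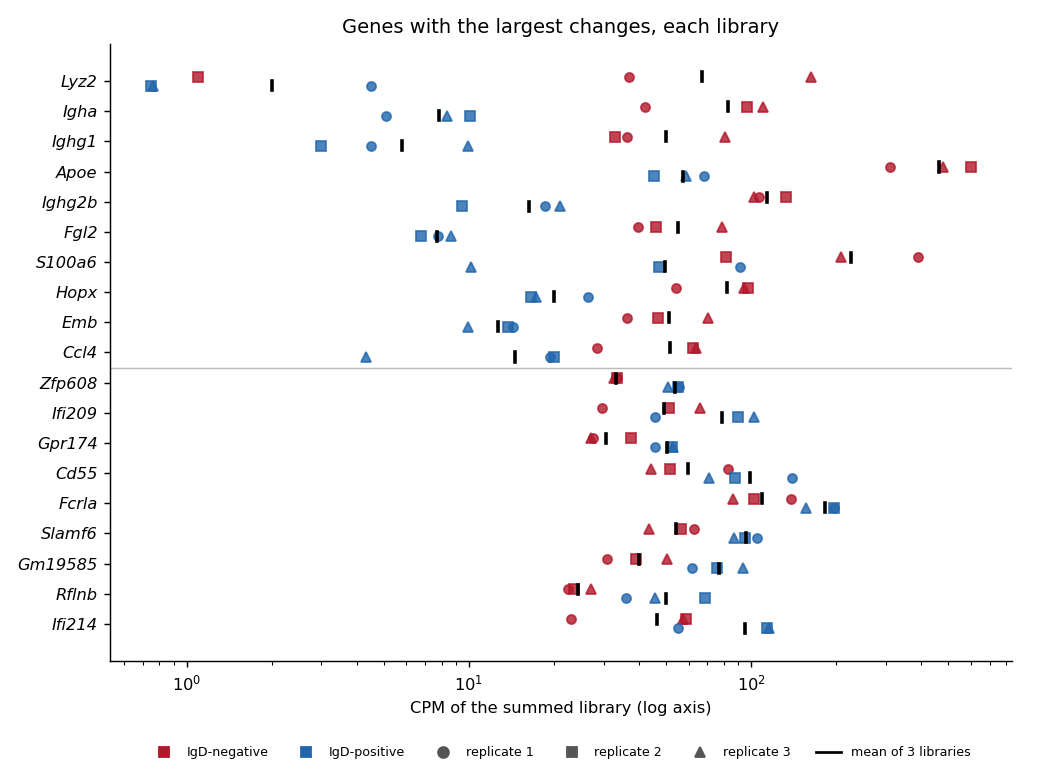
Level of the 10 most raised genes and 9 of the 10 most lowered (at least 50 CPM in the higher group) in CPM on a log axis, in the IgD-negative (red) and IgD-positive (blue) sums of the 3 libraries. Black ticks are means of 3 libraries. The groups are apart for most genes and overlap for Lyz2, S100a6, Cd55, Ifi209 and Ifi214. The genes were chosen for large changes in the same direction in 3 libraries, which favours groups that are apart.

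Apoe, which encodes a lipid carrier made by macrophages and by some B cells, had the highest mean level among the 10 most raised genes, although S100a6 stood above it in replicate 1. It stood at 310.1, 599 and 480.4 CPM in the IgD-negative sums of replicates 1, 2 and 3 and at 67.9, 45.4 and 58.7 CPM in the IgD-positive sums (log2 fold change 3.00 ± 0.19 (SE), adjusted p = 6.30e-07). The lowest IgD-negative library was above the highest IgD-positive one; groups that do not overlap, in either direction, were found for 11.4% of the genes tested. With cells thinned to 2000 UMIs, 16.8% ± 3.10 (SD, n = 3) of IgD-negative cells, 2.78% ± 0.752 of IgD-positive cells and 0.512% ± 0.0986 of T cells held an Apoe UMI, and without thinning 20.5%, 5.65% and 1.09%. Apoe is also on the list of macrophage and monocyte markers, whose 9 genes summed to 423.8, 634.9 and 786.7 CPM in IgD-negative cells and 134.1, 79.9 and 86.6 CPM in IgD-positive cells, Apoe being the most abundant in both. Of the 6 tested, Lyz2 and Apoe rose; Tyrobp (log2 fold change 0.96, adjusted p = 0.132) and Fcer1g (1.18, adjusted p = 0.226) did not pass. C1qc was at 0 in cells that the gate had chosen to lack C1qa and C1qb, Adgre1 stood at 2.24, 1.10 and 0 CPM and Csf1r at 1.68, 0 and 9.24 CPM in the IgD-negative sums.

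Lyz2, the lysozyme of myeloid cells, had the largest fold change of the 10 (log2 fold change 4.82 ± 0.54 (SE), adjusted p = 1.85e-04), at 36.9, 1.10 and 163 CPM against 4.49, 0.750 and 0.762 CPM. Replicates 1 and 3 carried it and replicate 2 was at the IgD-positive level. All 297 Lyz2 UMIs came from 7 cells, and 1 of them held 143. Of these 7 cells, 4 also held Fcer1g and 3 Apoe. The part of myeloid cells or doublets in the Lyz2 level was not tested. Lyz2 did not pass with DESeq2 (adjusted p = 0.528) or without the library block (0.275). Cells that carry 2 or more UMIs of T, NK, macrophage, dendritic or neutrophil markers were 93 of 335, 98 of 266 and 77 of 216 IgD-negative cells. They were 106 of 660, 189 of 847 and 134 of 539 IgD-positive cells. Without them 153 genes differed between the groups, 116 of them among the 280. When Apoe was not counted among these markers, an alternative chosen after seeing the data, 217 genes differed, 188 of them among the 280.

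Apart from the switched isotypes, of which all 5 tested were higher, B-1 genes were the list with the highest median among those of B cells. Of 10 listed genes 8 were tested and 7 were higher. The median log2 fold change was 1.99 over the 8 against -0.00 over all genes tested. For the counts of all lists of this comparison, 2.27% of the genes tested were higher and 0.939% lower. The lists were chosen with earlier results of these data known, so their ranking is a description. Bhlhe41, a transcription factor that B-1a cells need, was at 40.3, 29.7 and 47.6 CPM in IgD-negative and 6.29, 7.80 and 7.11 CPM in IgD-positive cells (log2 fold change 2.38 ± 0.20 (SE), adjusted p = 1.34e-05). Zbtb32, a repressor found in B-1 and memory B cells, was at 22.4, 15.9 and 27.0 CPM against 4.49, 4.35 and 2.79 CPM (log2 fold change 2.39 ± 0.28 (SE), adjusted p = 2.78e-04). The groups did not overlap for either gene. Cd9, Anxa2, Ahnak, Tbc1d9 and Spn (CD43) also rose, by log2 fold changes of 1.72, 2.73, 1.51, 2.26 and 1.50. Spn passed with the 3 libraries (adjusted p = 0.0171) and not without replicate 1 (0.0742). Of the alternatives that could test them, Spn lost the call in 6 of 13 and Ahnak in 3 of 14 (log2 fold change as low as 0.53). Anxa2 lost it in 2 of 13, and Cd9 and Tbc1d9 in 1 each. Ctla4 did not pass (0.63), and Cd5, the marker that divides B-1a from B-1b cells, was too low to be tested at 3.36, 3.30 and 3.55 CPM against 2.69, 1.65 and 1.27 CPM, far under the 156, 90.7 and 107 CPM of T cells. Cd9 is also a marginal zone gene. Of the 9 marginal zone genes tested, Cd9 and Plac8 rose, Cr2 (the complement receptor CD21) fell, and Dtx1 and Mzb1 did not pass. Plac8 no longer passed without replicate 2 (adjusted p = 0.0955). Under 14 alternatives Cr2 lost the call in 4 and Plac8 in 3.

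Genes of memory B cells rose in part. All 11 listed genes were tested and 5 were higher, Cd80, Nt5e (CD73), Zbtb32, Zbtb20 and Pdcd1lg2 (PD-L2), with a list median of 0.21. Cd80, a costimulatory ligand of CD28 and CTLA4, was at 16.8, 18.7 and 36.2 CPM in IgD-negative cells and at 4.49, 2.25 and 0.762 CPM in IgD-positive cells (log2 fold change 3.20 ± 0.41 (SE), adjusted p = 5.53e-04). Nt5e, an enzyme that makes adenosine, was at 16.8, 8.80 and 14.9 CPM against 2.10, 1.80 and 2.03 CPM (log2 fold change 2.66 ± 0.32 (SE), adjusted p = 3.71e-04). Both were higher in every library, without overlap between the groups. Pdcd1lg2 did not pass without replicate 3 (adjusted p = 0.362), and it lost the call in 7 of 14 alternatives (log2 fold change as low as 0.16). Cd27, Cd38 and Ccr6 had log2 fold changes of -0.30, -0.36 and -0.14 and did not pass.

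Of 28 activation genes 26 were tested, 14 were higher and none lower, with a list median of 0.63. Cd44, an adhesion receptor of activated lymphocytes, was at 98.0, 118 and 156 CPM against 36.8, 46.2 and 57.1 CPM (log2 fold change 1.38 ± 0.10 (SE), adjusted p = 1.68e-06). Fas, the death receptor of activated and germinal centre B cells, was at 19.0, 18.1 and 20.6 CPM against 5.39, 6.90 and 7.37 CPM (log2 fold change 1.51 ± 0.23 (SE), adjusted p = 0.00183). Ccl4, a chemokine that B cells release on receptor stimulation, was at 28.5, 62.1 and 64.0 CPM against 19.5, 20.1 and 4.32 CPM, with its lowest IgD-positive value in replicate 3 (log2 fold change 1.79 ± 0.34 (SE), adjusted p = 0.00955). The groups did not overlap for these genes. The 254 Ccl4 UMIs of IgD-negative cells lay in 23 of the 817 cells, and the richest cell of each library held 23, 62 and 37 of them. Ccl4 did not pass with DESeq2 (adjusted p = 0.558) or without the library block (0.374), and it lost its direction without cells that carry other cell types' markers, Apoe among them (log2 fold change -0.20). Myc, Irf4, Traf1, Bcl2a1b, Gpr183 and Nr4a3 rose by log2 fold changes of 0.66, 0.84, 0.67, 0.57, 0.74 and 0.83. Gpr183 did not pass with DESeq2 (adjusted p = 0.669), under the study's limits on cells (0.834), without cells with other cell types' markers (0.054) or in cells thinned to 2000 UMIs (0.371). Nr4a3 did not pass under the last 3 of these (0.0749, 0.0603 and 0.110), Irf4 not with DESeq2 or under the study's limits (0.237 and 0.142), Bcl2a1b not without cells with other markers (0.180) and Myc not without such cells when Apoe was not counted (0.0831), and all 6 genes lost the call without the library block. Cd83, Cd86, Mir155hg and Tnfaip3 passed as well (0.32, 0.43, 0.71 and 0.78), but not without replicate 2 (adjusted p = 0.342, 0.186, 0.0965 and 0.103), and Cd83 not without replicate 3 (0.317). Cd69, the early activation marker, stood at 181, 245 and 316 CPM against 225, 261 and 251 CPM and did not pass (adjusted p = 0.914). Of 13 immediate early and heat shock genes tested only Junb was higher (0.35), and it did not pass without replicate 2 or 3 (adjusted p = 0.336 and 0.326).

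Of 14 listed germinal centre genes 7 were tested, and Basp1, Rgs13 and Fas were higher, with a list median of 0.42. Bcl6, the transcription factor that defines germinal centre B cells, was at 21.8, 21.4 and 20.6 CPM against 18.6, 23.8 and 29.7 CPM and did not pass (log2 fold change -0.18, adjusted p = 0.741). Basp1 was at 163, 189 and 237 CPM against 54.8, 55.3 and 69.8 CPM (log2 fold change 1.69 ± 0.09 (SE), adjusted p = 1.92e-07), without overlap. Fas, given above, was even between libraries and did not pass without cells with other cell types' markers (adjusted p = 0.295). Rgs13, a regulator of chemokine receptor signals in germinal centre B cells, was high in replicate 1, at 64.4, 4.40 and 7.11 CPM against 6.58, 2.85 and 3.56 CPM, and without replicate 1 it did not pass (adjusted p = 0.435). Of the 7 enzymes of switching and hypermutation that were tested none passed, with a list median of 0.18. Mki67, a marker of cycling cells, rose (log2 fold change 2.90 ± 0.38 (SE), adjusted p = 7.43e-04) at 20.2, 10.4 and 6.40 CPM against 4.19, 0.750 and 0.508 CPM, its 64 UMIs lying in 15 cells; Top2a rose and did not pass without replicate 1 (adjusted p = 0.376). The other 9 cell cycle genes tested did not pass.

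Genes of naive follicular B cells fell in part. All 11 were tested, 4 were lower and none higher, with a list median of -0.15. Fcer2a (CD23), the low-affinity IgE receptor, was at 116, 59.4 and 58.3 CPM against 177, 80.4 and 80.5 CPM, lower in each library although replicate 1 was high in both groups (log2 fold change -0.53 ± 0.10 (SE), adjusted p = 0.00691). The transcription factors Foxp1 and Satb1 fell by 0.53 and 0.40 on the log2 scale. Under 14 alternatives Fcer2a lost the call in 4, Satb1 in 3 (log2 fold change as weak as -0.14) and Foxp1 in 1. Ccr7, Cxcr5 and Klf2 did not pass (0.18, 0.07 and -0.13).

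Of 20 genes of B-cell receptor signalling 6 were lower and none higher, with a list median of -0.31. They were Fcrla (log2 fold change -0.78 ± 0.10 (SE), adjusted p = 8.10e-04), an Fc receptor-like protein inside B cells, the receptor chain Cd79b, the inhibitory receptors Cd72 and Siglecg, the coreceptor Cr2 and Fcrl1. Cd79b was at 491, 452 and 338 CPM against 504, 819.8 and 648 CPM and had nearly equal values in replicate 1. Without replicate 2, Cd79b, Siglecg and Fcrl1 did not pass (adjusted p = 0.0516, 0.323 and 0.0529). Under 14 alternatives Fcrl1 lost the call in 8, Siglecg in 5 and Cr2 in 4 (log2 fold change as weak as -0.21). Cd79b lost it in 3, Cd72 in 2 and Fcrla in 1. Cd22 had a log2 fold change of -0.37 (adjusted p = 0.0775).

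Among genes of migration and adhesion 6 of 14 tested rose and 1 fell. Itgb1, the beta 1 integrin chain, was at 176, 98.4 and 127 CPM against 49.98, 33.6 and 38.1 CPM (log2 fold change 1.68 ± 0.10 (SE), adjusted p = 6.30e-07), without overlap. Rgs1, which dampens chemokine responses, was at 100.2, 62.7 and 93.1 CPM against 46.1, 22.2 and 27.2 CPM (log2 fold change 1.42 ± 0.13 (SE), adjusted p = 2.20e-05), and its direction turned under the study's limits on cells (-0.19). Gpr183 and Cd44 were named above. Cxcr3 passed at low levels (5.60, 8.80 and 11.4 CPM against 2.69, 1.95 and 3.56 CPM) but not without replicate 2 (adjusted p = 0.132), and Itgb7 passed but not without replicate 1 or 3 (0.122 and 0.178). Of the list of T-bet and CD11c B cells 5 of 8 were tested, and Cxcr3, Nt5e and Cd86 rose; Tbx21 (T-bet) was too low to be tested, at 8.96, 3.85 and 7.82 CPM against 2.99, 2.55 and 1.52 CPM. Integrin Itgax (CD11c) gave 9, 0 and 6 UMIs in the IgD-negative sums.

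Of 15 antigen presentation genes tested, Cd80 and Cd86 rose, the latter not without replicate 2 as above, and the class II genes did not pass: H2-Ab1 stood at 3901, 6600.4 and 6373 CPM against 4024, 5934 and 5794 CPM (log2 fold change 0.06 ± 0.05) and Cd74, the invariant chain, at 8762, 13797 and 13158 against 8719, 13167 and 12318 CPM (0.04 ± 0.05). Of 15 interferon response genes tested Ifi27l2a fell (-0.49), and it lost the call in 4 of 14 alternatives (log2 fold change as weak as -0.19). None of 4 light chain genes, 2 transitional B-cell genes, 2 receptors of BAFF and APRIL and 6 cytokine genes tested passed. Of 10 plasma cell genes, Irf4 and Herpud1 rose, Herpud1 not without replicate 2 (adjusted p = 0.121), and Xbp1 did not pass (0.26, adjusted p = 0.218).

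**Figure D4:**
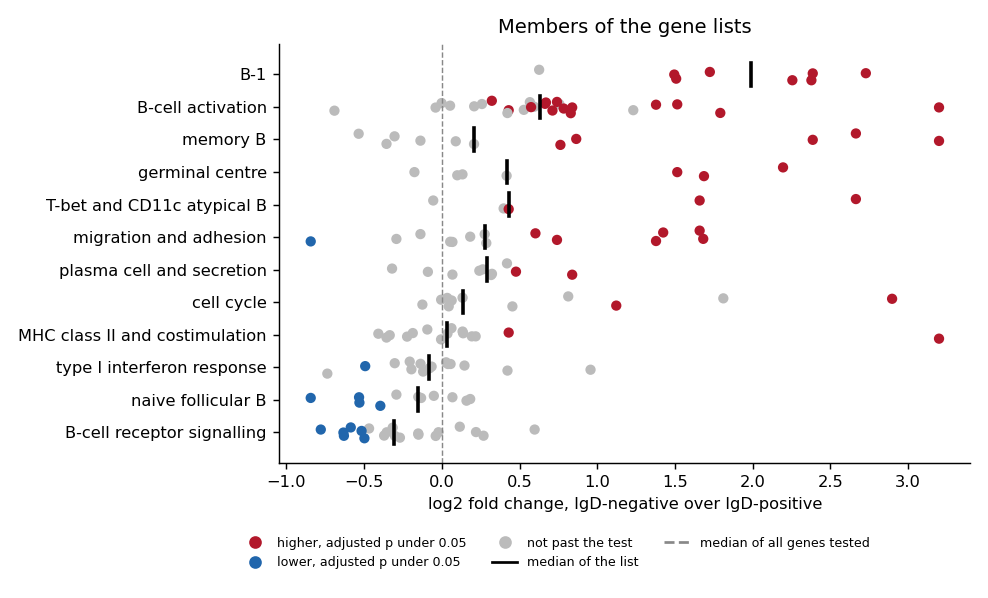
Log2 fold change of IgD-negative over IgD-positive cells (x axis) for the tested members of 12 gene lists (y axis; a gene can be on several). Red and blue points passed the test, grey points did not, black lines are list medians and the dashed line the median of all genes. Among the lists plotted, B-1 genes have the highest median (1.99) and B-cell receptor genes the lowest (-0.31).

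Outside these lists the gene with the smallest adjusted p among the most raised was Fgl2, a fibrinogen-like protein that can be secreted to restrain T cells, at 39.7, 46.2 and 78.9 CPM against 7.78, 6.75 and 8.63 CPM (log2 fold change 2.78 ± 0.18 (SE), adjusted p = 6.30e-07). S100a6, a calcium-binding protein of activated lymphocytes, was at 391, 81.4 and 208 CPM against 91.6, 47.2 and 10.2 CPM, with overlap between replicate 2 of the one group and replicate 1 of the other (log2 fold change 2.14 ± 0.36 (SE), adjusted p = 0.00433); it did not pass with DESeq2 (adjusted p = 0.331), without the library block (0.516) or under the study's limits on cells (0.071). Hopx, a small homeodomain protein, was at 54.3, 97.8 and 94.5 CPM against 26.3, 16.6 and 17.3 CPM (log2 fold change 2.04 ± 0.21 (SE), adjusted p = 9.85e-05), and Emb, a cell adhesion protein, at 36.4, 46.7 and 70.4 CPM against 14.4, 13.8 and 9.90 CPM (log2 fold change 1.95 ± 0.21 (SE), adjusted p = 1.61e-04), both without overlap. Under the study's limits on cells neither passed (adjusted p = 0.538 for Hopx and 0.110 for Emb). Among the lowered genes, Ifi214 was at 23.0, 58.8 and 57.6 CPM against 55.1, 114 and 116 CPM (log2 fold change -1.07 ± 0.11 (SE), adjusted p = 7.65e-05) and Ifi209 at 29.7, 51.1 and 66.1 CPM against 45.8, 89.5 and 102 CPM (log2 fold change -0.72 ± 0.11 (SE), adjusted p = 0.00206), each lower in 3 of 3 libraries. Both belong to a family of DNA sensor genes with near-identical members on chromosome 1, and reads can be split between them. Slamf6, an adhesion receptor between lymphocytes, fell by 0.83 and Cd55, which protects cells from complement, by 0.76 on the log2 scale. Rflnb, Gm19585, Gpr174 and Zfp608 fell too, with log2 fold changes of -1.07, -0.97, -0.72 and -0.72. Under 14 alternatives Gpr174 and Zfp608 lost the call in 4 each, and Ifi209 in 3 (log2 fold change as weak as -0.17). Rflnb and Ifi214 lost it in 2 each, and Gm19585, Slamf6 and Cd55 in 1 each.

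The promoters of these genes, 250 bases before the RefSeq start on GRCm38.p6, were searched on both strands for the E-box CACGTG, which Bhlhe41 and related factors bind. The motif was chosen after the values were seen. It stood in 6.02% of 32851 promoters, in 1 of the 9 promoters of the 6 raised genes with an entry and in none of the 8 promoters of the 8 lowered genes with an entry. The match belongs to Hopx (chr5:77095268-77095517, minus strand), and another lies before Slpi (chr2:164356508-164356757, minus strand), a gene described below. Both are shown 5′ to 3′ with the E-box in capitals.
Hopx: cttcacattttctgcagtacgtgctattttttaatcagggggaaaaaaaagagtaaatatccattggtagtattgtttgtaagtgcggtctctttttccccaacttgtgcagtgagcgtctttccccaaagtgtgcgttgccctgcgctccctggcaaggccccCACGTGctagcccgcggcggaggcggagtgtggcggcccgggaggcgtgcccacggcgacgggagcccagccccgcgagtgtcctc
Slpi: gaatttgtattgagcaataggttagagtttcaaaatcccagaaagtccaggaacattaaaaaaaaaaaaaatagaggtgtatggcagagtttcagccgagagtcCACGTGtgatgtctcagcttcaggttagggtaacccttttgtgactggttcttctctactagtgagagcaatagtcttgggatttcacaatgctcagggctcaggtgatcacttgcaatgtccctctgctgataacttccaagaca
A match is a description of the letters and not a site.

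Within the IgD-negative cells, the 103 switched cells were compared with the 357 dominated by Ighm, heavy-chain constant genes left out. The groups had 31, 44 and 28 switched cells and 176, 108 and 73 Ighm-dominant cells in replicates 1, 2 and 3, and median depths of 5718, 7795.5 and 6868 UMIs against 4859.5, 6091.5 and 5237 UMIs. Of 6544 genes 191 differed (2.92%), 114 higher (1.74%) and 77 lower (1.18%) in switched cells. The count was 217 without replicate 1, 62 without replicate 2, 94 without replicate 3 and 27 without the library block.

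Several genes raised in IgD-negative cells were higher in the switched than in the Ighm-dominant ones, Apoe, Cd80, Anxa2, Cd44, Basp1 and Itgb1 among them. Apoe was at 780.2, 1492 and 1139.9 CPM in switched and 273, 435 and 406 CPM in Ighm-dominant cells (log2 fold change 1.60 ± 0.17 (SE), adjusted p = 6.52e-06), and 53.4% of switched, 15.7% of Ighm-dominant and 15.1% of cells with no call held an Apoe UMI. Apoc2, a neighbour of Apoe on chromosome 7 and also an apolipoprotein, was at 106, 91.8 and 23.9 CPM against 15.6, 0 and 0 CPM (log2 fold change 3.76 ± 0.58 (SE), adjusted p = 4.03e-04). This fold is not well set, since 1 of the 3 Ighm-dominant sums held any Apoc2. Over 12 alternatives its log2 fold change ran from 0.53 to 10.0, and the call was lost in 4. Among these were DESeq2 (adjusted p = 0.239), no library block (0.0948) and no cells with other cell types' markers (0.0721). Its 112 UMIs in IgD-negative cells compare with 1 UMI over all IgD-positive sums. Fcer1g, the shared signalling chain of Fc receptors, was at 59.7, 17.2 and 87.7 CPM against 4.86, 2.61 and 4.19 CPM (log2 fold change 3.90 ± 0.67 (SE), adjusted p = 0.00105); it too is on the macrophage list, and 5 of the 103 switched cells held it. Of the 9 macrophage markers 3 were tested in this comparison, and Apoe and Fcer1g rose. The third, Tyrobp, did not pass (log2 fold change 0.48, adjusted p = 0.735), at 4.59, 40.2 and 163 CPM against 34.0, 26.1 and 96.3 CPM, and was held by 6.80% of switched and 13.2% of Ighm-dominant cells. Among those not tested, Cd68 was held by 8.74% of switched and 3.36% of Ighm-dominant cells, Aif1 by 2.91% and 1.40%, and Csf1r by 1.94% and 0.280%. Adgre1 was held by 0 of the 103 switched cells and by 1.40% of Ighm-dominant cells. It was held by 6 IgD-negative cells in all, too few to limit the share of switched cells that express it. C1qc was at 0 in both groups, and the gate had removed cells with C1qa or C1qb. Cells with 2 or more UMIs of other cell types' markers, Apoe among these, were 14 of 31, 31 of 44 and 21 of 28 switched cells. Among Ighm-dominant cells they were 47 of 176, 35 of 108 and 20 of 73. Their part was not tested further than by leaving them out, after which 69 genes differed, and 169 when Apoe was not counted.

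Cd80 was at 32.1, 45.9 and 87.7 CPM in switched against 10.7, 3.92 and 14.7 CPM in Ighm-dominant cells (log2 fold change 2.57 ± 0.55 (SE), adjusted p = 0.00712), and did not pass without replicate 2 or 3 (adjusted p = 0.138 and 0.0545). Anxa2, a membrane-binding annexin, was at 59.7, 83.2 and 159 CPM against 22.4, 7.84 and 14.7 CPM (log2 fold change 2.85 ± 0.54 (SE), adjusted p = 0.00279) and did not pass without replicate 2 (0.0695). Slpi, a protease inhibitor, was at 129, 51.6 and 71.7 CPM against 37.9, 1.31 and 6.28 CPM (log2 fold change 2.49 ± 0.39 (SE), adjusted p = 5.18e-04). Its log2 fold change ran from 2.13 to 4.17 under the alternatives, and the call was lost in 1 of 11 of them. Among 14 genes of migration and adhesion tested, Itga4, Itgb1, Cd44 and Cxcr3 rose, Cd44 not without replicate 2 (adjusted p = 0.0545) and Cxcr3 not without replicate 2 or 3 (0.0849 and 0.0565). The integrin chains Itga4, at 486, 376 and 403 CPM against 155, 146 and 100.5 CPM (log2 fold change 1.62 ± 0.16 (SE), adjusted p = 1.86e-06), and Itgb1, at 367, 221 and 243 CPM against 171, 64.0 and 85.8 CPM (log2 fold change 1.36 ± 0.18 (SE), adjusted p = 6.09e-05), form the receptor VLA-4 for a ligand on inflamed vessels. Ltb, a lymphotoxin that shapes lymphoid tissue, was at 551, 470.4 and 422 CPM against 183, 234 and 209 CPM (log2 fold change 1.18 ± 0.18 (SE), adjusted p = 4.70e-04). The groups did not overlap for any gene given with its values here, as for 14.3% of all genes tested.

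Cells dominated by Ighm were higher in other genes. Of 11 naive follicular genes tested, Satb1, Foxp1 and Fcer2a were lower in switched cells and none was higher. Fcer2a did not pass without replicate 3 (adjusted p = 0.0506). Satb1, a chromatin organizer, was at 161, 112 and 79.7 CPM in switched and 367, 384 and 439.6 CPM in Ighm-dominant cells (log2 fold change -1.79 ± 0.19 (SE), adjusted p = 6.52e-06). Of 7 marginal zone genes, Cr2, Dtx1 and Cd36 were lower and Mzb1 higher, with a list median of -1.20; Cr2 and Cd36 lost the call without replicate 1 (adjusted p = 0.113 and 0.191) and all 4 lost it without replicate 2 (0.2, 0.209, 0.233 and 0.456). Of 12 interferon response genes, Ifit3 and Irf7 were lower, Irf7 not without replicate 3 (adjusted p = 0.214). Il1b, which encodes an inflammatory cytokine, was at 18.4, 5.74 and 0 CPM in switched and 19.5, 118 and 111 CPM in Ighm-dominant cells (log2 fold change -3.41 ± 0.71 (SE), adjusted p = 0.00556), and 58 of the 817 cells held it; it did not pass without replicate 2 or 3 (adjusted p = 0.207 and 0.0734). Replicate 1 had nearly equal values in both groups. Under the study's limits on cells, which left replicate 1 as the only switched sum, the direction of Il1b turned (log2 fold change 0.31). Rasgef1b, Asph and Samsn1 fell by 3.88, 2.58 and 2.12 on the log2 scale. Rasgef1b was at 0 in switched cells of replicates 1 and 3, so its fold is not well set. Under the alternatives its log2 fold change ran from -9.97 to -3.33.

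**Figure D5:**
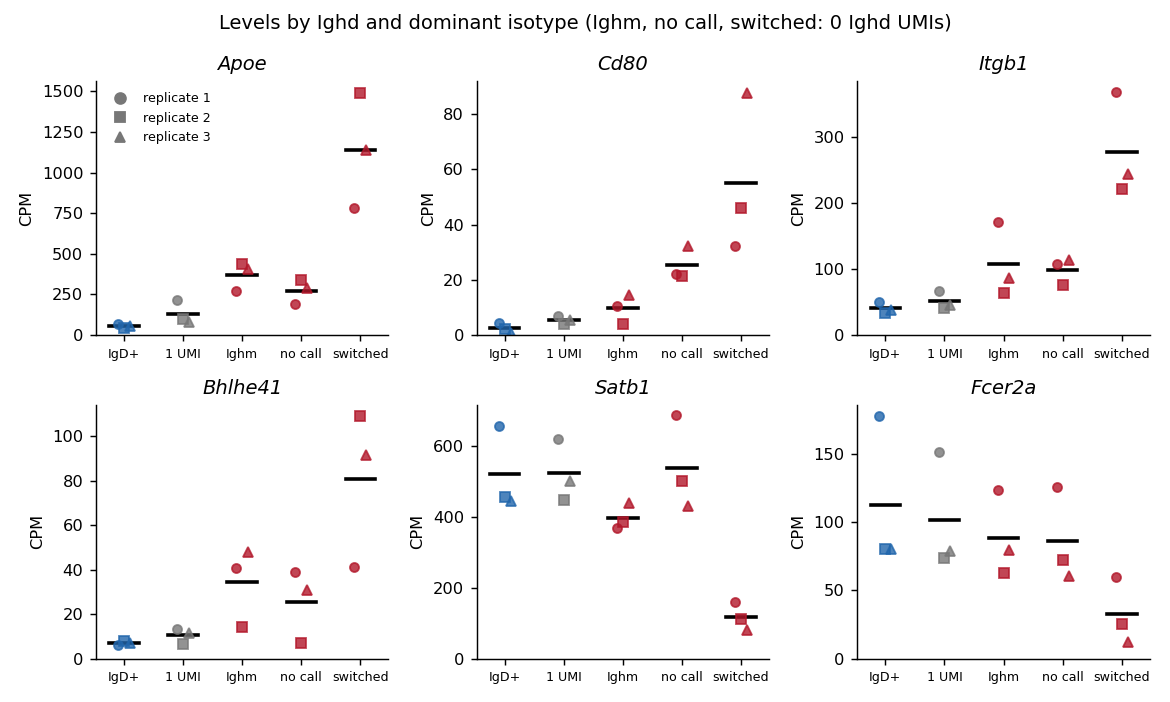
Level in CPM (y axes, from 0) of 6 genes in IgD-positive cells, cells with 1 Ighd UMI, and IgD-negative cells dominated by Ighm, without a call, or switched. Symbols are the 3 libraries and lines their means. Apoe, Cd80 and Itgb1 have their highest means in switched cells, and Satb1 and Fcer2a their lowest.

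The Ighm-dominant IgD-negative cells were also compared with IgD-positive cells, so that switched IgD-negative cells were on neither side. This comparison shares its samples with the others and is not independent of them. Only the Ighm-dominant cells were chosen for an Ighm call. The IgD-positive cells were used whatever their isotype call, and 533 of the 2046 had none. The part of this choice in the differences was not tested. Of 6544 genes 60 differed (0.917%), 47 higher (0.718%) and 13 lower (0.199%), and 31, 32 and 36 differed without replicates 1, 2 and 3, of which 19, 24 and 31 were among the 60. Apoe was at 273, 435 and 406 CPM in Ighm-dominant against the 67.9, 45.4 and 58.7 CPM of IgD-positive cells (log2 fold change 2.68 ± 0.18 (SE), adjusted p = 1.25e-09). Fgl2 was at 47.7, 35.3 and 83.7 CPM against 7.78, 6.75 and 8.63 CPM (log2 fold change 2.79 ± 0.26 (SE), adjusted p = 4.36e-07), and S100a6 at 552, 95.3 and 385 CPM against 91.6, 47.2 and 10.2 CPM (log2 fold change 2.68 ± 0.39 (SE), adjusted p = 2.57e-04). Lgals1 (galectin 1) rose by a log2 fold change of 2.06 and Cd9 by 2.18, the latter not passing without replicate 2 (adjusted p = 0.0649). Under 12 alternatives Cd9 lost the call in 4, S100a6 and Lgals1 in 2 each and Fgl2 in 1. The groups did not overlap for these genes, as for 10.7% of all genes tested. Of 8 B-1 genes tested 5 were higher, Bhlhe41, Zbtb32, Cd9, Tbc1d9 and Ahnak, with a list median of 2.06. Bhlhe41 (2.24), Zbtb32 (2.44) and Ahnak (1.65) did not pass without replicate 1 (adjusted p = 0.068, 0.0771 and 0.0771), nor Tbc1d9 (2.69) without replicate 3 (0.0757). Cd80 was not among the genes that passed, at 10.7, 3.92 and 14.7 CPM, although each library was above its IgD-positive value given earlier. Of 23 activation genes 3 were higher, Cd44, Irf4 and Bcl2a1b. With all IgD-negative cells, whose sums are larger, it was 14 of 26 in a separate fit, and the difference between the counts was not tested. Irf4 did not pass without replicate 2 or 3 (adjusted p = 0.117 and 0.0692), nor Bcl2a1b without any 1 of the libraries (0.0615, 0.0777 and 0.0842). Slamf6 fell by 0.89 and Rflnb by 1.29 on the log2 scale, and each lost the call without at least 1 library, Slamf6 without replicates 1 and 2 (adjusted p = 0.0687 and 0.0718) and Rflnb without the same replicates (0.068 and 0.272).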

How the data were processed

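The authors deposited, per library, a matrix of raw UMI counts over 32285 genes made with Cell Ranger 6.0.1 and mm10; it was neither normalized nor annotated, and its barcodes were already limited to cells, with median depths of 4230, 6415 and 5521 UMIs. Gene coordinates are from GENCODE M21 on GRCm38 and promoters from RefSeq on GRCm38.p6. The libraries held 5844, 9537 and 11566 cells with 33851381, 74775394 and 80806452 UMIs.

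The members and gene lists were chosen with earlier results of these data known. UMIs were summed per library and group and fitted with edgeR 4.0.16 (R 4.3.3; filterByExpr, TMM, quasi-likelihood F test). The library entered as a block. Calls were made at a Benjamini-Hochberg adjusted p under 0.05. The standard error is the log2 fold change divided by the square root of F. The pairing rests on the mice, since both groups of a library were drawn from 1 pool; deviations of the IgD-negative and IgD-positive sums from their group means correlated within libraries with r = 0.61, 0.35 and 0.33. Which experiment each library came from, and why replicate 1 stood apart, is not given in the sources used here. The p-values rest on how the difference between groups varied among these 3 pools. Differences in level that the groups of a pool shared were taken out by the block. Sums of fewer than 10 cells were not used. On simulated counts of the IgD-negative against IgD-positive comparison (8711 genes), 70.8% of genes shifted by 1 on the log2 scale were found, with 7 false calls. Of those shifted by 2, 95.8% were found. For switched against Ighm-dominant cells (6351 genes) the shares were 46.8% and 85.7%, with 5 false calls. These counts were drawn from 1 pooled profile, with the same spread for every gene and no difference between libraries. The real libraries differ, so the rates are not the power or error of the test on the real sums.

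Named genes are the 10 with the largest log2 fold change each way (5 in comparisons by isotype) among those past the test, at 50 CPM or more in the higher group and changed alike in 3 libraries, and members of the gene lists, which hold 29 lists. Doublets were scored with Scrublet (scanpy 1.11.5), and the top 7.6% of each library were marked; they were kept in the main analysis and left out in an alternative. Alternatives were DESeq2 1.42.0, no count filter, no TMM, no block, each library left out, immunoglobulin genes removed, the study's cell limits (200 to 5000 genes, fewer than 6000 UMIs, a mitochondrial share below 5% and a ribosomal share above 5%), removal of marked doublets and of cells with other cell types' markers, depth-matched IgD-positive cells, and a gate on thinned cells. The alternative that leaves Apoe out of those markers was added after seeing the data. Shares of cells carry exact 95% binomial intervals. One listed gene, Mx1, had no entry under that symbol in the files. Results for a few of the listed genes are not reported here.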

Additional observations from a re-analysis of the deposited data

How the results depend on the processing

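Of the 280 genes that differed between IgD-negative and IgD-positive cells, 98 were called by DESeq2, all among the 280, and 26 without the replicate block, also all among them. The count was 583 without a filter on low counts, 50 under the study's limits on cells, 153 without cells with other cell types' markers and 236 to 452 when 1 library was left out (452 without replicate 1). The 191 genes between switched and Ighm-dominant cells became 298 without the filter, 27 without the block, 44 under the study's limits (where sums of at least 10 switched cells were left in replicate 1 only, which is assumed to vary like the other sums), 69 without cells with other markers (replicates 1 and 2 only) and 62 to 217 with 1 library left out. The 60 genes between Ighm-dominant and IgD-positive cells became 31 with DESeq2, 137 without the filter, 6 without the block, 14 under the study's limits, 19 and 25 without cells with other markers (Apoe counted and not counted) and 31 to 36 with 1 library left out. The causes were not tested.

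The IgD-negative share of gated cells was 48.6% in cells thinned to 2000 UMIs, and 21.1% to 24.4% with 1 library left out. The difference in switched share, 12.7 percentage points, was 6.90 under the study's limits and 7.05 in thinned cells. Without cells with other markers it was 6.43, and 11.1 when Apoe was not counted. It was 17.6 with the looser isotype call (which also calls 9.26% of T cells switched) and 10.8 to 14.5 with 1 library left out. The difference was above 0 in each.

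Of 65 genes named or listed and called between IgD-negative and IgD-positive cells, 12 passed under every alternative that could test them: Apoe, Basp1, Bhlhe41, Cd80, Fgl2, Igha, Ighg1, Ighg2b, Ighg2c, Itgb1, Nt5e and Zbtb32. Without the replicate block 50 of the 65 lost the call and 15 kept it, and with DESeq2 27 lost it and 38 kept it. The next alternatives could not test all 65. Under the study's limits 27 lost the call, 1 turned and 20 kept it. Without cells with other markers 16 lost it, 1 turned and 41 kept it. In thinned cells 14 lost it and 48 kept it. With IgD-positive cells matched on depth 8 lost it and 56 kept it. Directions turned for Ccl4 without cells with other markers (-0.20) and, under the study's limits, for Rgs1 (-0.19; -0.29 for Ighm-dominant cells), Rgs13 in Ighm-dominant cells (-1.24) and Il1b in switched cells (0.31, with replicate 1 the only switched sum left). Depth limits the group itself, since a cell without an Ighd UMI can still express Ighd.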

Other observations

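Cells of the same gate with 1 Ighd UMI, which took part in no test, lay between the other groups for several genes. Apoe was at 214, 101 and 81.4 CPM in their sums of replicates 1, 2 and 3, with 310.1, 599 and 480.4 CPM in IgD-negative and 67.9, 45.4 and 58.7 CPM in IgD-positive cells. Zbtb32 was at 7.79, 6.30 and 9.84 CPM, with 22.4, 15.9 and 27.0 and 4.49, 4.35 and 2.79 CPM in IgD-negative and IgD-positive cells. Satb1 stood at 618, 448 and 501 CPM, near the 656, 456 and 444 CPM of IgD-positive cells.

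In the 357 IgD-negative cells without an isotype call, Satb1 was at 685, 501 and 429 CPM and in switched cells at 161, 112 and 79.7 CPM, and Fcer2a was at 126, 72.4 and 60.4 CPM and 59.7, 25.8 and 11.96 CPM. Of other naive follicular genes, Klf2 was held by 37.3% of cells without a call and 35.9% of switched cells, S1pr1 by 28.6% and 29.1% and Bach2 by 35.3% and 46.6%. Cd80 was at 22.2, 21.3 and 32.4 CPM in cells without a call and at 10.7, 3.92 and 14.7 CPM in Ighm-dominant cells, each library higher in the former. These values are given without a test. Of the 73 IgD-negative cells with a Cd80 UMI, 46 also held Apoe (63.0%), which 20.2% of all 817 did, and of the 65 cells with a Zbtb32 UMI, 27 held Bhlhe41 (41.5%), which 11.4% of all did. Of the 103 cells with an S100a6 UMI, 20 held Apoe (19.4%), near the share of all cells. Deeper cells hold more genes of any kind, and the part of depth in these shares was not tested.

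Cells with 20 or more Jchain UMIs, which the gate left out, were 41, 13 and 18 in the 3 libraries and had 43812, 44844 and 79480.1 CPM of switched constant genes. Igha was 23.2%, 0.324% and 27.4% of their switched UMIs, against 19.8%, 32.7% and 32.9% in IgD-negative B cells, so replicate 2 had little Igha in the former and much in the latter.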
